A study of Homo sapiens with 3 samples.

Results

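The ERBB receptors and the ligands of the EGF family were described in MCF10A cells, a cell line from human breast epithelium that is immortalized but forms no tumours and needs EGF in the medium to grow. The group holds 10 genes chosen by name, 4 receptors (EGFR, ERBB2, ERBB3 and ERBB4) and 6 ligands (EGF, TGFA, AREG, EREG, HBEGF and BTC), out of 62754 genes in the deposited table. All 10 were found by Ensembl identifier. RNA was sequenced in 3 replicates of untreated cells in exponential growth. By the labels these cells carried the empty vector of a retroviral doxycycline-inducible system, had been selected with puromycin and received no doxycycline, and no gene had been inserted, whereas the methods of the study mention neither vector nor selection. The culture medium contained a mammary growth supplement kit, which supplies EGF, and cholera toxin, which raises cAMP in cells. All replicates belong to 1 condition of a single cell line, and their labels tell no batches apart, so no group could be compared with another. No source used here says whether the replicates came from separate cultures, so the spread between them, and any p-value from it, may be technical.

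The ERBB receptors are receptor tyrosine kinases that are activated in pairs. EGFR binds EGF, TGFA, AREG and EPGN, and shares HBEGF, BTC and EREG with ERBB4. ERBB2 has no known ligand of its own and is the preferred partner of the other receptors, while ERBB3 has an impaired kinase and binds neuregulins. The ligands are made as precursors in the cell membrane, from which proteases of the ADAM family release the active growth factor. In mammary epithelium this family is known for its control of proliferation, and AREG for its part in duct growth.

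Values are in TPM, a unit that corrects reads for transcript length and sums to 1000000 in each replicate, so that levels of different genes can be set side by side. From the steps of the TPM values, the depth was 15273329, 15446347 and 11166546 reads in replicates 1 to 3. Replicate 3 stood apart in composition, since the median log2 ratio of its TPM was -0.25 to replicate 1 and -0.23 to replicate 2 over the 8364 protein-coding genes whose mean reached 10 TPM. Of the general and basal epithelial markers 9 of 9 were at or above 1 TPM, with a summed level from 14760 to 19020 TPM. They ranged from EPCAM at 14.6 ± 1.19 TPM to KRT5 at 6612 ± 890 TPM (SD, n = 3 each). Of the luminal list 4 of 7 were at or above 1 TPM, with a summed level from 478.5 to 577.4 TPM, most of it KRT18 at 412.6 TPM. The luminal genes below 1 TPM were ESR1, PGR and KRT19, with means of 0.035, 0.0049 and 0.046 TPM. The lists for fibroblasts, endothelium and leukocytes had 2 of 7, 1 of 5 and 1 of 5 genes at or above 1 TPM, with summed levels from 13.7 to 14.8, from 1.94 to 2.36 and from 1.90 to 3.99 TPM. Their highest genes were DCN at 9.05, PECAM1 at 1.77 and CD14 at 1.96 TPM, and the other fibroblast gene above 1 TPM was COL1A1 at 4.96 TPM. Among the markers with 0 reads in every replicate were COL1A2, LUM, PDGFRA, CDH5 and CD3E. COL3A1, PDGFRB, VWF, KDR, TEK, PTPRC and LYZ had reads but means below 1 TPM. LYZ was at 1.02, 1.12 and 0.750 TPM in replicates 1, 2 and 3.

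The ligands share the EGF-like motif, a stretch that is held together by 6 cysteines and binds the receptor. To show what makes these genes a family, the coding bases of the motif were read 5′ to 3′ from the canonical transcript of each gene (GENCODE 44 on hg38), with the cysteine codons in capitals. EPGN, a ligand outside the 10 genes, is added because it lies beside AREG, EREG and BTC on chromosome 4.
EGF: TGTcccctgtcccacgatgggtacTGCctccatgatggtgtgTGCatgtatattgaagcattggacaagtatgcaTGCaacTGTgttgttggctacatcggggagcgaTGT
TGFA: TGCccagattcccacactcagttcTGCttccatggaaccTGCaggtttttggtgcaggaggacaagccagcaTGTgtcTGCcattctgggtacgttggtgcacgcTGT
AREG: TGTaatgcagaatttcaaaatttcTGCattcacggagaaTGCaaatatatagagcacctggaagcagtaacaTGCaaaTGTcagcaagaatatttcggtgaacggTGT
EREG: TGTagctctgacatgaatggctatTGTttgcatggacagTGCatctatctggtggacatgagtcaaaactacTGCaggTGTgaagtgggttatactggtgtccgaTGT
HBEGF: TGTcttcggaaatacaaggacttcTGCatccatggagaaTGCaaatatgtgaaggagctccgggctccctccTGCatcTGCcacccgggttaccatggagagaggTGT
BTC: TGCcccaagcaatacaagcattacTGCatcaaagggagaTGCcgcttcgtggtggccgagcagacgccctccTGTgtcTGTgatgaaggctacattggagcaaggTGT
EPGN: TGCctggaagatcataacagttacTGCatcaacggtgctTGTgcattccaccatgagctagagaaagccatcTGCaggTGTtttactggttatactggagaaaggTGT
The search took only set gaps between the cysteines, so EGF-like repeats with other gaps were not counted. This form of the motif was found exactly 1 time in each of the 6 ligands. In 5 of them it spanned 36 codons with 7, 4, 10, 1 and 8 codons between successive cysteines, whereas EGF had 5 codons in place of 4 in the second gap. EGF also differed in the size of its precursor, with 1207 codons and the motif at codons 976 to 1012, against 160 to 252 codons in the other ligands. Among the 5 ligands of equal motif length, the 10 pairs encoded the same residue at 30.6% to 52.8% of codons. These shares include the 6 cysteines, which the search required and which therefore matched in every pair. TGFA and BTC were most alike together with AREG and HBEGF, at 19 of 36 codons for both pairs, and AREG and BTC were least alike, at 11 of 36.

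By the mean of the replicates, 8 of the 10 reached 1 TPM, the level that the study uses for an expressed gene, and all 8 were at or above it in every replicate. In the table as a whole, 24.9% of all genes and 56.7% of the protein-coding genes were at or above 1 TPM. The exceptions were ERBB4 and EGF. From the highest to the lowest the order was AREG, EGFR, ERBB2, TGFA, EREG, HBEGF, ERBB3, BTC, EGF and ERBB4. Leaving out replicate 3, or either of the others, gave the same order. In bulk samples, fewer cells with a transcript and less of it per cell cannot be told apart.

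**Figure D1:**
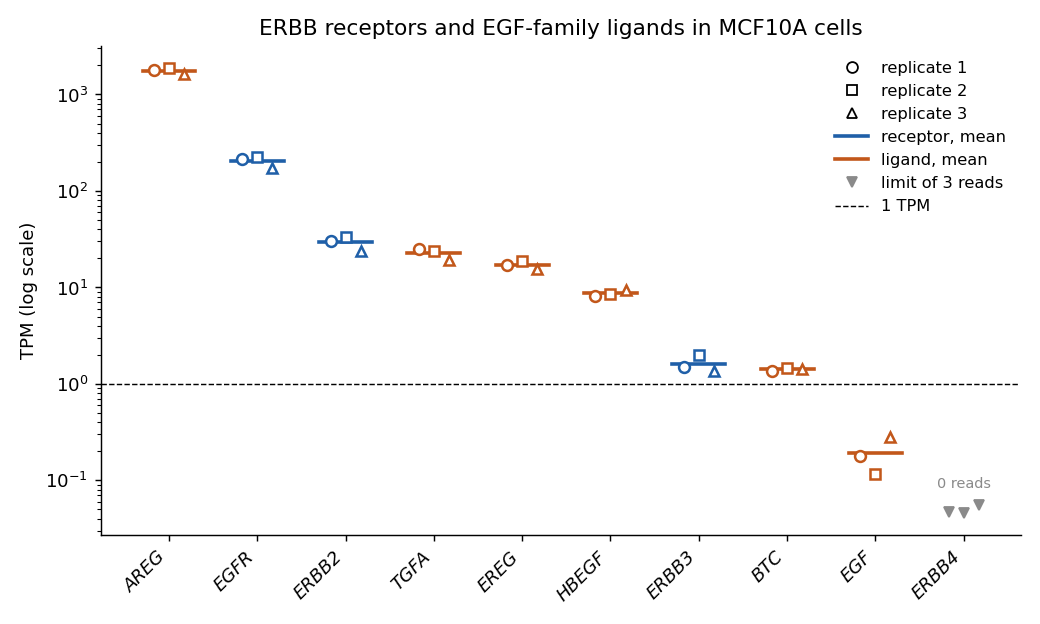
TPM of the 10 genes on a log scale, in order of the mean (bars); points are the 3 replicates, blue marks receptors, orange ligands, the dashed line is 1 TPM and grey triangles give the limit of 3 reads for ERBB4, which had 0 reads. AREG lies at 1769 TPM, EGFR at 202.6 TPM, and EGF and ERBB4 lie below 1 TPM in every replicate.

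Among the receptors, EGFR was by far the most abundant. EGFR (ENSG00000146648, chromosome 7 of hg38 from 55019017 to 55211628, plus strand) had a level of 212, 222 and 173 TPM in replicates 1, 2 and 3, which rested on 11040, 11904 and 7672 reads. Its mean of 203 ± 26.0 TPM (SD, n = 3) ranked it 676th of 20046 protein-coding genes. Replicate 3 was the lowest, as it was for 78.5% of the 11360 protein-coding genes at or above 1 TPM. EGFR-AS1, which overlaps 1.88% of the canonical EGFR transcript on the opposite strand, had 0, 0 and 1 reads.

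ERBB2 (ENSG00000141736, chromosome 17 from 39687914 to 39730426, plus strand) is the receptor whose gene is amplified in a class of breast cancers. Its level was 30.4, 33.4 and 24.0 TPM, with a mean of 29.3 ± 4.81 TPM (SD, n = 3), 74.6% of protein-coding genes being lower. EGFR was 6.97, 6.67 and 7.23 times as high as ERBB2 in replicates 1, 2 and 3, a mean log2 ratio of TPM of 2.80 ± 0.06 (SD, n = 3). The ranges of both genes were far apart, and the ratio varied little between replicates. It was positive in 3 of 3 replicates, for which the exact sign-flip permutation test cannot give a two-sided p below 0.25.

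ERBB3 (ENSG00000065361, chromosome 12) was close to the 1 TPM level, at 1.49, 1.98 and 1.36 TPM from 49, 67 and 38 reads. The exact Poisson interval, which covers counting error only, ran from 1.10 to 1.97, from 1.54 to 2.52 and from 0.961 to 1.86 TPM (95%), and that of replicate 3 includes 1 TPM. ERBB4 (ENSG00000178568, chromosome 2), the receptor known for roles in heart, nervous system and lactating breast, had 0 reads in each replicate. A count of 0 allows up to 0.0472, 0.0459 and 0.0554 TPM by the limit of 3 reads per library, and ERBB4 shared no exonic base with another gene. EGFR thus held 86.9%, 86.3% and 87.2% of the TPM summed over the 4 receptors, ERBB2 12.5%, 12.9% and 12.1%, and ERBB3 0.611%, 0.769% and 0.684%. The make-up of the receptor transcripts was nearly the same in the 3 replicates, also in replicate 3.

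To place the receptors among others of their class, they were ranked within a list of 58 receptor tyrosine kinase genes. Of these, 28 were at or above 1 TPM, against 56.7% of all protein-coding genes. EGFR was the first of the 58 in each replicate and held 18.8% of their summed mean TPM. The next were EPHA2 at 130 ± 18.3, AXL at 105 ± 13.5, MET at 94.9 ± 6.95, EPHB4 at 71.3 ± 13.4 and DDR1 at 59.8 ± 8.08 TPM (SD, n = 3 each). EGFR was 1.59, 1.52 and 1.57 times as high as EPHA2, an ephrin receptor, so the distance held within each replicate although the ranges over replicates, 173 to 222 and 111 to 147 TPM, lay close. With the union of exons as gene length the log2 ratio of EGFR to EPHA2 was 0.03 ± 0.04 (SD, n = 3) and EGFR was second in replicate 2. ERBB2 was 12th in each replicate, between IGF1R and LMTK2, and ERBB3 was 28th by the mean. With the union of exons as length, ERBB2 was 14th, 13th and 14th in replicates 1, 2 and 3.

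**Figure D2:**
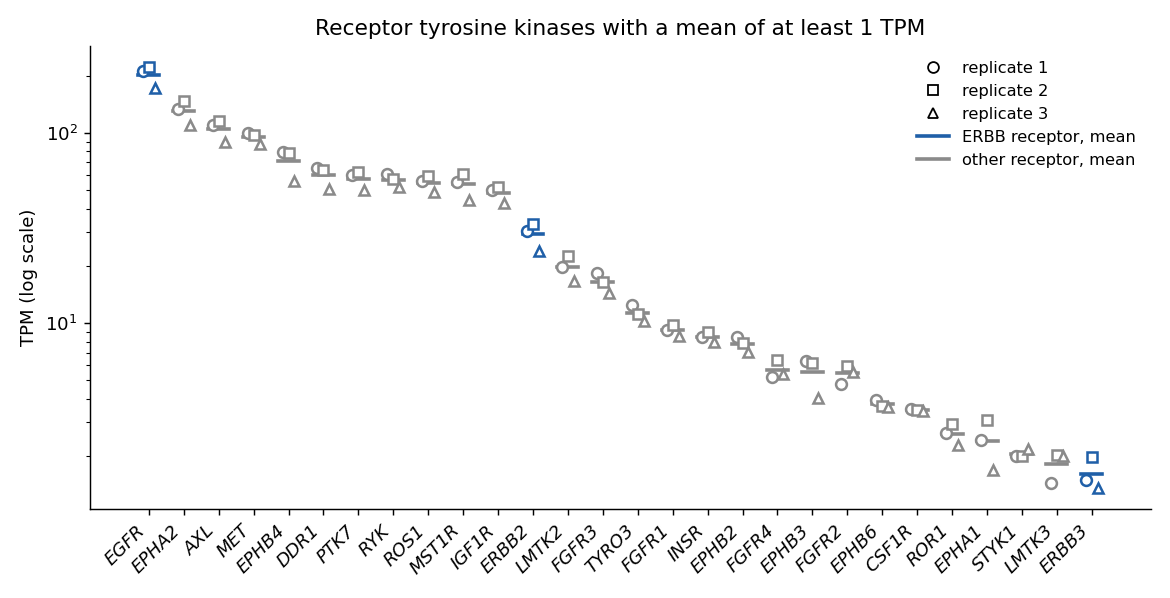
TPM on a log scale of the 28 receptor tyrosine kinase genes that reach 1 TPM on average, in order of the mean (bars), with the 3 replicates as points and ERBB receptors in blue. EGFR is first at 202.6 TPM, ERBB2 is 12th at 29.3 TPM and ERBB3 is 28th at 1.61 TPM.

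Among the ligands, AREG stood out. AREG (amphiregulin, ENSG00000109321, chromosome 4 from 74445136 to 74455005, plus strand) was measured at 1805, 1872 and 1630 TPM, from 11685, 12454 and 8977 reads. Its mean of 1769 ± 125 TPM (SD, n = 3) ranked it 53rd of 20046 protein-coding genes, and no other gene overlaps the exons of its canonical transcript. AREG held 97.2%, 97.3% and 97.3% of the TPM summed over the 6 ligands. Within replicates 1, 2 and 3, its level was 8.51, 8.41 and 9.41 times that of EGFR, its receptor.

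TGFA (ENSG00000163235, chromosome 2), a ligand that epithelia use to stimulate themselves, was the next of the 6, at 25.0, 23.6 and 19.3 TPM with a mean of 22.6 ± 2.99 TPM (SD, n = 3). AREG was 72.3, 79.3 and 84.7 times as high. EREG (epiregulin, ENSG00000124882, chromosome 4) had 17.1, 18.7 and 15.4 TPM. HBEGF (heparin-binding EGF-like growth factor, ENSG00000113070, chromosome 5), which also serves as the receptor of diphtheria toxin, had 8.23, 8.55 and 9.39 TPM from 102, 109 and 99 reads. These 3 ligands were thus in the same order in every replicate, with HBEGF the only 1 of them whose TPM was highest in replicate 3.

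BTC (betacellulin, ENSG00000174808, chromosome 4) had 1.36, 1.46 and 1.43 TPM from only 19, 21 and 17 reads, and its exact Poisson intervals (95%) all reached below 1 TPM, to 0.820, 0.907 and 0.834 TPM. EGF itself (ENSG00000138798, chromosome 4) was below 1 TPM in every replicate. It had 0.179, 0.116 and 0.280 TPM from 6, 4 and 8 reads, a mean of 0.192 ± 0.083 (SD, n = 3), with exact Poisson intervals (95%) from 0.0656 to 0.389, from 0.0316 to 0.297 and from 0.121 to 0.552 TPM. These intervals overlap, which is no test of a difference. The chi-square test of reads described below detected none for EGF between replicates at this depth (adjusted p of 0.305). The transcripts of the ligand that the medium supplies were 0.00963%, 0.00603% and 0.0167% of the summed ligand TPM.

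Along the order of levels, the log2 ratio of TPM between neighbours was larger than its SD between replicates, and had the same sign in 3 of 3 replicates, for all pairs down to EGF but 1. The exception was ERBB3 and BTC, with a mean log2 ratio of 0.16 ± 0.26 (SD, n = 3) and BTC the higher in replicate 3. The nearest other pairs were ERBB2 and TGFA at 0.37 ± 0.12, and TGFA and EREG at 0.40 ± 0.13 (SD, n = 3 each). With the union of exons as gene length, TGFA was above ERBB2 and BTC above ERBB3, while the other places in the order were the same under both lengths.

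AREG, EREG and BTC are neighbours on the long arm of chromosome 4. Together with EPGN (epigen, ENSG00000182585) they were the 4 protein-coding genes, with 2 long non-coding genes, in a region of 486.1 kb (chromosome 4 of hg38 from 74308470 to 74794523). The levels of these neighbours spanned a wide range. EPGN was at 169, 157 and 163 TPM, EREG next to it at 17.1 ± 1.68 TPM (SD, n = 3), then AREG at 1769 TPM and BTC, on the minus strand, at 1.42 ± 0.05 TPM (SD, n = 3). Within replicates 1, 2 and 3, EPGN was 9.87, 8.35 and 10.6 times as high as EREG. The mean log2 ratio of TPM was 3.44 ± 0.13 for AREG to EPGN and 3.58 ± 0.14 for EREG to BTC (SD, n = 3 each). The steps between these genes held in every replicate, and the 2 long non-coding genes between them had means of at most 0.381 TPM.

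**Figure D3:**
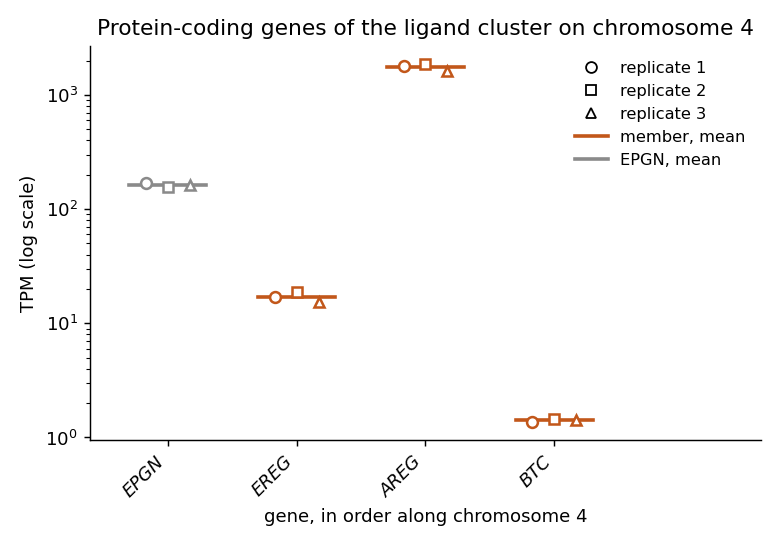
TPM on a log scale of the 4 protein-coding genes of the ligand cluster, ordered by position on chromosome 4, with bars for the mean and points for the 3 replicates; EPGN, in grey, is not among the 10 genes. AREG, at 1769 TPM, and BTC, at 1.42 TPM, are neighbours in this order.

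The promoter of AREG is known to hold a cAMP response element, the site of CREB. Promoter windows were searched for the full element TGACGTCA, which reads the same on both strands. RefSeq windows (GRCh38.p14) of 300 bases, most of them upstream of the start of the gene, were matched for 9 of the 10 genes, in 11 windows. The element was found in 1 of these 9 genes, AREG, and, counted by window and not by gene, in 1.85% of all 35116 windows. The window of EPGN did not hold these letters either. The 150 bases before the AREG start, chr4:74444986-74445135 on the plus strand, are given with the element in capitals, its first base 65 bases before the start.
AREG promoter: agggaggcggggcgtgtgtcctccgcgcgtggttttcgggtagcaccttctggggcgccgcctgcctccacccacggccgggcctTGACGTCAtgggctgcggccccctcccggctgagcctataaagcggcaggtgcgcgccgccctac
The match describes the sequence only, since no binding was measured, and its part in the level of AREG was not tested. The element was known in AREG beforehand and was searched for after the values were seen, so the match is no test of enrichment.

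Other ligands of the family were read in the same way. Of the 5 ligands outside the 10 genes, 2 were at or above 1 TPM. EPGN had a mean of 163 ± 6.05 TPM (SD, n = 3), which was above TGFA 6.75, 6.63 and 8.45 times and below EGFR in every replicate. The log2 ratio of EPGN to EGFR was -0.31 ± 0.21, but 0.08 ± 0.21 with the union of exons as length (SD, n = 3 each). NRG1, a neuregulin that binds ERBB3 and ERBB4, had 6.49, 7.81 and 4.28 TPM, lowest in replicate 3. NRG2 and NRG4 had means of 0.691 and 0.856 TPM, where 49.1% of the canonical NRG4 transcript overlaps FBXO22 on the opposite strand, and NRG3 had 0 reads in each replicate. With these 5 included, AREG held 88.9% ± 0.59 of the ligand TPM and EPGN 8.20% ± 0.67 (SD, n = 3 each), so that no other ligand reached the share of either.

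Of the proteases that release the ligands and their partners, 8 of 8 reached 1 TPM. ADAM17, the main sheddase of AREG, TGFA, EREG and HBEGF, had 24.4 ± 1.59 TPM, and ADAM10, the main sheddase of EGF and BTC, 34.7 ± 4.53 TPM (SD, n = 3 each). ADAM17 was the lower of both in every replicate, by a log2 ratio of TPM of -0.50 ± 0.10 (SD, n = 3). This order depended on the assumed length, since the ratio was 0.08 ± 0.10 with canonical transcripts and -1.26 ± 0.10 with the union of exons (SD, n = 3 each). On the opposite strand, IAH1 overlaps 30.1% of the ADAM17 canonical transcript. ADAM15 at 213 ± 26.6 and ADAM9 at 96.6 ± 6.30 TPM were the highest, and ADAM12 and ADAM19 had 6.01 ± 0.58 and 8.97 ± 0.39 TPM (SD, n = 3 each). RHBDF2, an inactive rhomboid that carries ADAM17 to the cell surface, had 23.6 ± 3.23 TPM, and its relative RHBDF1 9.19 ± 1.69 TPM (SD, n = 3 each).

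Downstream and around the receptors, most genes were present. All 12 genes of the negative regulators were at or above 1 TPM, with means from 3.06 TPM to 107 TPM for PTPN1, a phosphatase that acts on EGFR. Of the 15 adaptors and effectors 13 were, led by SHC1, the adaptor between EGFR and GRB2, at 537 ± 78.0 TPM (SD, n = 3), although PYGO2, on the same strand, shares 9.62% of the canonical SHC1 transcript. GAB2 at 0.450 TPM, from 10, 15 and 16 reads, and STAT5A at 0.669 TPM, from 19, 21 and 5 reads, were the exceptions. All 10 genes of the RAS-ERK core lay between 10.6 and 93.5 TPM, with MAP2K2 the highest, and 8 of 9 of the PI3K-AKT core were at or above 1 TPM, with PIK3R1 the highest at 123 ± 11.1 TPM (SD, n = 3). PIK3R2, at 0.324 TPM, has 99.0% of its canonical transcript in common with a second gene of that strand, so its level is uncertain. Over the 6 lists around the receptors, 53 of 59 genes reached 1 TPM, against 56.7% of all protein-coding genes. The median of these 53 was 31.1 TPM, against 24.9 TPM over the 11360 protein-coding genes that reached it.

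**Figure D4:**
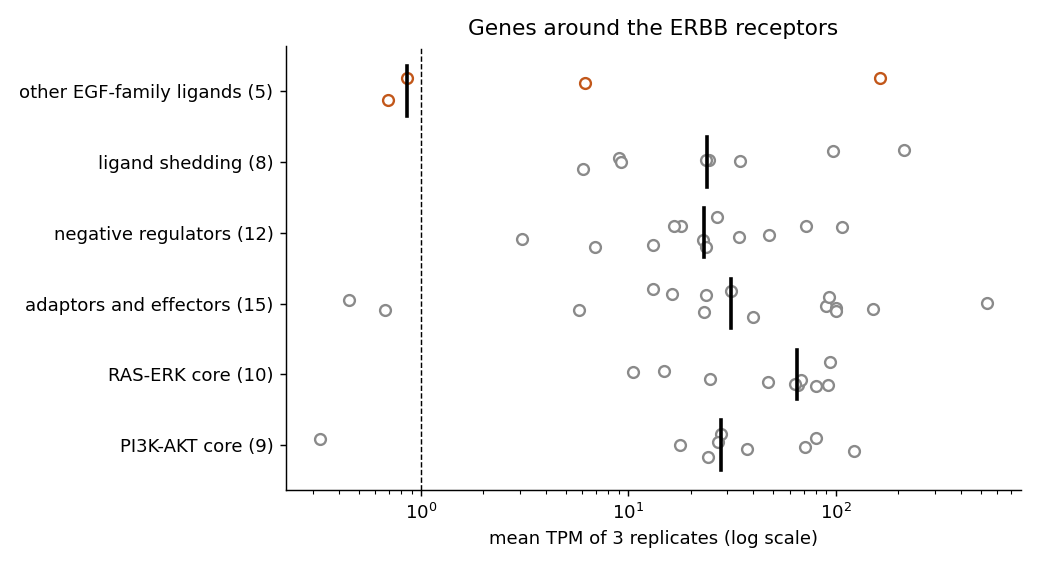
Mean TPM of 3 replicates on a log scale for the genes of 6 lists around the ERBB receptors, 1 point per gene, with the number of genes in brackets, a black bar at the median of the list and a dashed line at 1 TPM. NRG3, with 0 reads, is not drawn; EPGN is the rightmost point of the other ligands at 163 TPM, and 53 of the 59 genes reach 1 TPM.

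To see how far the replicates differed beyond counting error, reads were compared between the 3 libraries by a chi-square test after scaling by the median ratio, over the 15802 genes with at least 15 reads in all. After Benjamini-Hochberg adjustment over these genes, 31.1% differed between the libraries (adjusted p under 0.05), as did 3 of the 9 genes of the group that were tested. These were EGFR, AREG and ERBB2, with adjusted p of 1.11e-06, 0.000149 and 0.0347, the 3 genes with the most reads. Their differences were small. Relative to the mean of the replicates, scaled EGFR reads lay between -0.06 and 0.06 on the log2 scale, AREG between -0.05 and 0.05, and ERBB2 between -0.12 and 0.12. For the other 6 genes the adjusted p lay between 0.153 for HBEGF and 0.860 for BTC. The test compares these libraries and not conditions. Of 8 genes tested, 2 were called without replicate 1 (EGFR and ERBB2), 1 without replicate 2 (AREG) and 2 without replicate 3 (EGFR and AREG), when 27.0%, 9.26% and 21.2% of all genes were called. The call of ERBB2 was lost with no minimum on reads, where 17.3% of all genes were called, and 5 genes were called with equal TPM in place of the median ratio, where 54.3% were.

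**Figure D5:**
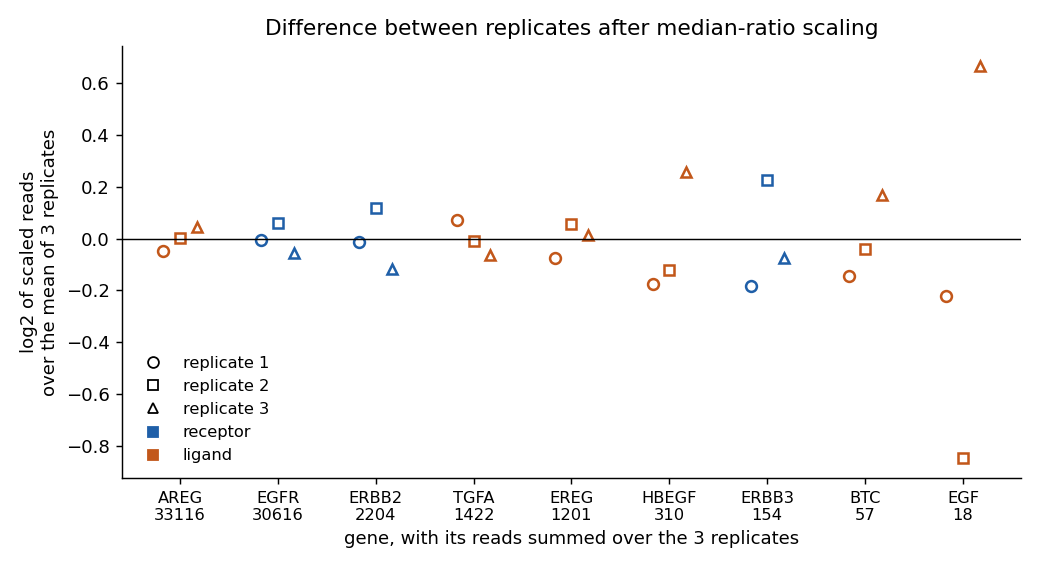
Reads of each gene after median-ratio scaling, as the log2 ratio to the mean of the 3 replicates, for the 9 genes with reads; the number under each name is its reads summed over replicates, blue marks receptors and orange ligands. AREG and EGFR, with 33116 and 30616 reads, lie between -0.06 and 0.06, and EGF, with 18 reads, spans from -0.85 to 0.67.

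For the 8 genes at or above 1 TPM, the SD of log2(TPM + 1) between replicates had a median of 0.16 and lay between 0.03 for BTC and 0.24 for ERBB2. At the low level of BTC the added 1 shrinks this SD. Its scaled reads ran from -0.145 to 0.169 on the log2 scale, relative to the mean of the replicates. The median was 0.16 also over the 11360 protein-coding genes at this level, and 0.19 over all 15640 genes at it. With TPM rescaled to the sum over protein-coding genes, it was 0.0896 for the 8 genes and 0.139 over all genes at this level. Without replicate 3, the median of the 8 genes was 0.0515.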

How the data were processed

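RNA-seq of 3 replicates of untreated MCF10A cells was used. After removal of ribosomal RNA, libraries were sequenced and processed by the authors with Seq2science on hg38, and TPM values were deposited per gene and replicate, without pooling. The submitters' processing notes name STAR, fastp and MultiQC, while neither the release of the annotation nor strand handling is given in the sources used here. Genes were named from GENCODE 44, which held 62700 of the 62754 identifiers.

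Reads were recovered as TPM times the length of the longest transcript, less 1 base per exon, divided by the smallest value above 0, which was whole within 0.01 for 100% of values in each replicate. The totals rest on that step being 1 read, and intervals and limits cover counting error only. Since a longer assumed transcript lowers TPM, other gene lengths were tried, as were other cutoffs, scalings, pseudocounts and leaving out each replicate.

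With a single condition, no differential expression was tested. Reads of all genes with at least 15 reads were compared between libraries with a chi-square test, adjusted after Benjamini-Hochberg and checked on simulated data. The EGF-like motif was searched in translated canonical transcripts as 6 cysteines with set gaps.

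The genes, lists and tests were chosen with earlier results of these data known, and the promoter search after the values were seen. Named were the 10 genes, all other ligands and shedding genes, the highest gene and those below 1 TPM of each other pathway list, the 5 highest other receptor tyrosine kinases, and the highest gene and those at 0 of the marker lists, of which 1 is not reported here. Genes that overlap a named gene or border ERBB2 in rank were named beside it. Further markers were named after their values were seen, to show the lists more fully. The tools were scipy 1.17.1, pandas 2.3.3 and numpy 2.4.6 under Python 3.11.15, and matplotlib 3.10.9 for plots.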

Additional observations from a re-analysis of the deposited data

How the results depend on the processing

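No paired analysis was possible because the series holds no second condition. The number of the 10 genes at or above 1 TPM was 8 under every alternative but a cutoff of 2 TPM, where it was 6 without ERBB3 and BTC. By the mean, EGFR stayed first among the 58 receptor tyrosine kinases under both other gene lengths and without each replicate, and the count of 53 pathway genes lay between 53 and 56. With the canonical transcript and the union of exons, the log2 ratio of EGFR to ERBB2 was 2.69 and 3.18 in place of 2.80, and the EGFR share of receptor TPM 85.9% and 89.5% in place of 86.8%. The AREG share of ligand TPM was 97.0% with the union of exons in place of 97.2%. The number of genes that differed between libraries was 3 of 9 tested, and 3 of 8 with a minimum of 50 reads. At that minimum 36.6% of all genes tested were called. The number was 2 with no minimum, where ERBB2 was lost, and 5 under equal TPM. It was from 1 to 2 when 1 replicate was left out. The median SD of log2(TPM + 1) was 0.0515 without replicate 3, 0.195 without replicate 1 and 0.0896 with protein-coding genes only, against 0.156 as reported. The cause of these changes was not tested. With protein-coding genes only, a rescaling that raises every kept gene with reads, 6 of the 10 means moved by more than 1 SD, all 6 upward. With canonical transcripts 6 moved, 0 of them upward. The canonical transcript of these 6 has the length of the longest. Apart from the 1 base per exon that is subtracted in recovering reads, only the rescaling over all genes changed their TPM. With the union of exons 4 moved, of which 1 upward and ERBB2 from 29.3 to 18.7 TPM. Depth limits EGF, BTC and ERBB3, with 18, 57 and 154 reads in all.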

Other observations

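Of the 58 receptor tyrosine kinase genes, 30 were below 1 TPM and 12 had 0 reads in every replicate, ERBB4 among them. ROS1, singled out after its values were seen and known as a kinase of few normal tissues, was at 55.7, 59.6 and 48.9 TPM, which ranked it 9th in each replicate and above ERBB2. Another gene of that strand overlaps 4.04% of the canonical ROS1 transcript.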
